A study of Mus musculus with 30 samples.

Results

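The genes described here are 47 cell cycle and DNA replication genes, 24 that act in S phase, when the DNA is copied, and 23 that act in mitosis, when the copied chromosomes are separated. They were chosen by gene symbol, with no measured value in the rule but with earlier results of these data known. All 47 were found among the 46078 genes of the counts table. All 47 were also among the 16261 genes that passed the filter on low counts and were tested. The S-phase genes cover the loading and firing of replication origins, DNA synthesis at the fork, the supply of nucleotides and the entry into S phase. The mitotic genes cover the mitotic cyclins and Cdk1, the mitotic kinases and the spindle checkpoint, the centromere, the spindle, the anaphase-promoting complex and the structure of the chromosomes.

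The 30 libraries came from wild-type C57BL/6J mice, 5 females and 5 males in each of 3 conditions, with 1 library per mouse. Vehicle mice received saline by intraperitoneal injection and were killed at 9 weeks. The treated mice received 1 injection of azoxymethane (AOM, a carcinogen that acts on the colon) at 10 mg/kg, then 2.5% dextran sulfate sodium (DSS, an irritant that injures the colon lining) in the drinking water in 3 cycles, and were killed at 9 or at 15 weeks. The mice were 5 to 10 weeks old when treatment began, and no allele or agent other than these distinguished the groups. The tissue was the epithelial layer scraped from the colon, so cells from beneath the epithelium can be carried along. Vehicle mice of 15 weeks were not analysed here. At 15 weeks the effects of AOM/DSS and of elapsed time cannot be told apart, and the same vehicle mice served as controls at both times. The comparisons ask whether AOM/DSS changed the level of these transcripts at each time, and whether the change differed between the sexes.

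In the colon, cells divide in the lower part of the crypts and stop dividing as they move up toward the lumen. Cyclin D with Cdk4 or Cdk6 inactivates the retinoblastoma protein, which releases E2F transcription factors to switch on the genes for DNA replication. The genes for mitosis are switched on later in the cycle, through a protein complex that reads the CHR, a short element near their start sites, often with CCAAT boxes nearby that bind the factor NF-Y.

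The promoter windows of the members hold the letters of these elements, and 4 windows are shown because their genes stand for the 2 phases, Mki67 and Ccnb1 for mitosis and Pcna and Mcm6 for S phase. Each window has 300 bases, 250 before the transcription start and 50 after it, taken from RefSeq on build GRCm38.p6 and read 5′ to 3′ along the gene, and each lies on the minus strand. Capitals mark the letters of the CHR (TTTGAA or TTCGAA), the CCAAT box (CCAAT) and the E2F site (TTTCCCGC, TTTCGCGC, TTTGCCGC or TTTGGCGC), searched on both strands. The Mki67 window is chr7:135716330-135716629, with CHR letters at positions -116 and -98 from the start and 3 CCAAT boxes.
Mki67: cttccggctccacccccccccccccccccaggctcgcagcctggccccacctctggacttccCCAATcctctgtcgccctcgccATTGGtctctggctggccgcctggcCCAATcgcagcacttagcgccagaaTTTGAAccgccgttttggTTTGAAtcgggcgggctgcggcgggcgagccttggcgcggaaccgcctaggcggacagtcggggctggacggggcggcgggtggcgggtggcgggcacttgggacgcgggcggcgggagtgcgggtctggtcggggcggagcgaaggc
The Ccnb1 window is chr13:100786437-100786736, with CCAAT boxes at -99 and -67 and no CHR letters.
Ccnb1: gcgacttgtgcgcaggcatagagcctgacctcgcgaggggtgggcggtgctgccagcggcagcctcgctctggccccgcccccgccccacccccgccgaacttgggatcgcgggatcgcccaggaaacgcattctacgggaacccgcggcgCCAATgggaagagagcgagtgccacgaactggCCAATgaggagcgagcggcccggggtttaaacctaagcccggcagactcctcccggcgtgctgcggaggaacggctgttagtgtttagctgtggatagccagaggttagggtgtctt
The Pcna window is chr2:132253131-132253430, with 1 CCAAT box at -87.
Pcna: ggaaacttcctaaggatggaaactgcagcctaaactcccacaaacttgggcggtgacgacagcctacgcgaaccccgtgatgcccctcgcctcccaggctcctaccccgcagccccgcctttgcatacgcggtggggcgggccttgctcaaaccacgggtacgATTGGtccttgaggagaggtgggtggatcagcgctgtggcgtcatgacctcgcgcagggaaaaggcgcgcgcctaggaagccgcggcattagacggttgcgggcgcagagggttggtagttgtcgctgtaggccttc
The Mcm6 window is chr1:128359656-128359955, with E2F letters at -110, -106 and -47, the first 2 of which overlap on opposite strands, and CCAAT boxes at -57 and -14.
Mcm6: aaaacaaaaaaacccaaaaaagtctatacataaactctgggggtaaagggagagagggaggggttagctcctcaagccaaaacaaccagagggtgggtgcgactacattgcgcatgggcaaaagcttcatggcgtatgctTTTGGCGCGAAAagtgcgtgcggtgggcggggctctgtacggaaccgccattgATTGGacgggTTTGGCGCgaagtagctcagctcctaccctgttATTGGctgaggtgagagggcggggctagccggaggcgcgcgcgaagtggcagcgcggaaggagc

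RefSeq windows were at hand for 39 of the 47 members, in 42 windows, since some genes have more than 1 start. Gins1, Mcm4, Gins2, Ccna2, Ccne2, Tpx2, Aurkb and Kif20a had none. Among the 19 mitotic windows 15 held CHR letters (78.9%), 16 a CCAAT box (84.2%), 14 both (73.7%) and 1 E2F letters (5.26%). Among the 23 S-phase windows 5 held CHR letters (21.7%), 14 a CCAAT box (60.9%), 4 both (17.4%) and 9 E2F letters (39.1%). Of all 32851 promoter windows of this length 19.2% held CHR letters, 37.4% a CCAAT box, 7.52% both and 2.26% E2F letters. The mitotic and S-phase windows thus differ in letters that the choice of the genes did not use, and a match of letters is a description of the sequence and not of binding.

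Depth ran from 9265804 to 30806392 counts on genes per library, and the least read member, Gins1, had 23 to 238 counts. Some libraries stood apart before any comparison. The 8 epithelial markers (Epcam, Cdh1 and others) summed to between 9320 and 16700 CPM (counts scaled to the library's total) in all 30 libraries. Male vehicle replicate 1 had a sum of 5290 CPM for 6 smooth muscle markers, against 2.14 to 206 CPM in the other 29 libraries, and 1630 CPM for 12 mesenchymal markers, against 33.9 to 589 CPM in the others. Female vehicle replicate 1, with 260 CPM of mesenchymal and 44.3 CPM of smooth muscle markers, had the highest sums of the female vehicle libraries for both lists. The results were therefore also computed without each of these libraries and without both.

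In vehicle mice the members spanned a wide range of level per transcript length. Pcna, the sliding clamp that holds DNA polymerases on their template, stood highest at 36.4 ± 6.87 FPKM (fragments scaled to transcript length and library total, mean ± SD, n = 10). Top2a, which untangles DNA before chromosomes separate, followed at 18.3 ± 4.92 FPKM, Ube2c, the ubiquitin-conjugating enzyme of the anaphase-promoting complex, at 17.5 ± 5.93 FPKM and Birc5, a subunit of the chromosomal passenger complex, at 17.2 ± 5.62 FPKM. Mki67, which coats mitotic chromosomes and whose protein Ki-67 is the usual stain for dividing cells, came next at 15.0 ± 3.93 FPKM. The last 4 of these overlapped within their SD, while the lowest Pcna library, at 26.5 FPKM, lay above every vehicle library of Top2a, Birc5 and Mki67 but not of Ube2c. At the low end stood Cdc6, which loads the helicase at origins, at 0.958 ± 0.343 FPKM, Chek1, the kinase that slows S phase when DNA is damaged, at 1.23 ± 0.411 FPKM, and Pola1, the catalytic subunit of the polymerase that primes DNA synthesis, at 1.5 ± 0.303 FPKM.

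Averaged over the genes, the S-phase members lay at 3.88 ± 0.32 log2 CPM in vehicle mice, 4.09 ± 0.27 at 9 weeks of AOM/DSS and 4.03 ± 0.33 at 15 weeks (SD, n = 10 each). The mitotic members lay at 4.77 ± 0.49, 5.06 ± 0.27 and 4.95 ± 0.43 log2 CPM in the same conditions. Both means lay above the vehicle mean by less than 1 SD of the vehicle libraries, and the ranges of the 3 conditions overlapped. In bulk tissue a change in the share of dividing cells and a change in these transcripts per cell cannot be told apart.

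**Figure D1:**
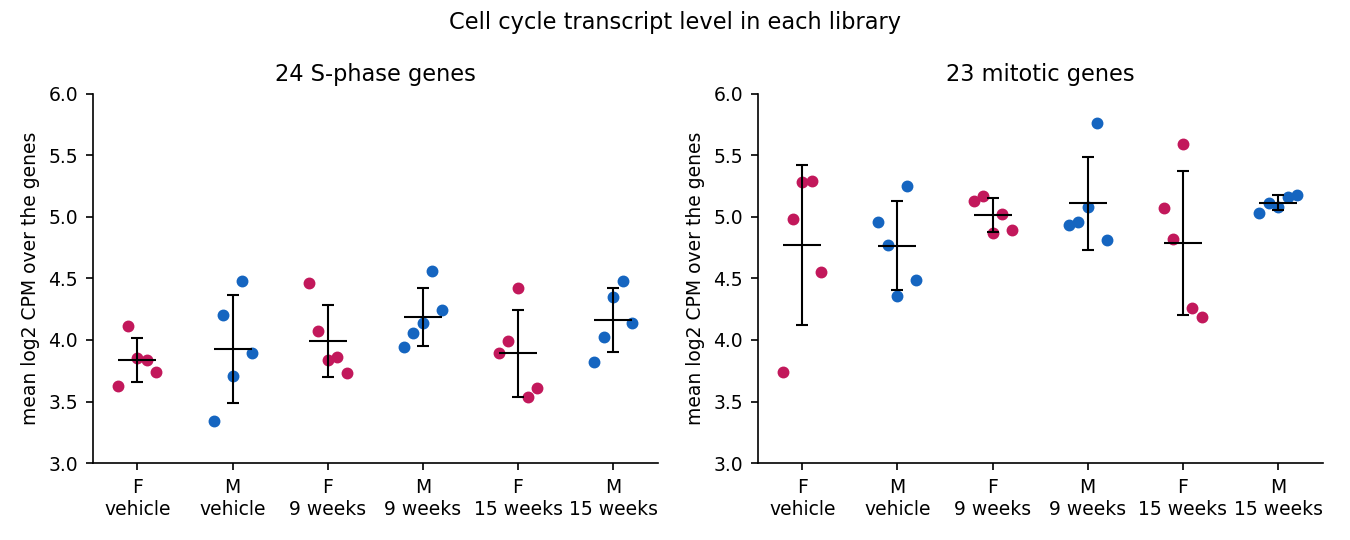
Mean log2 CPM of the 24 S-phase genes (left) and of the 23 mitotic genes (right) in each of the 30 libraries, with the mean and SD of the 5 mice of each sex (F, M) and condition. The mitotic means range from 3.74 in female vehicle replicate 1 to 5.76 in male replicate 4 at 9 weeks, and the groups overlap in both panels.

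Within groups, the median SD of log2 CPM was 0.40 over the S-phase members and 0.44 over the mitotic members, against 0.33 over all genes tested (quartiles 0.21 and 0.62). The members ran from Tyms, which makes thymidylate, at an SD of 0.25, to Nusap1, a spindle microtubule protein, at 0.55. The spread was shared among genes of a library. Female vehicle replicate 1 had the lowest CPM of its group for all 23 mitotic genes but for 13 of the 24 S-phase genes. Male vehicle replicate 1 had the lowest CPM of its group for 19 of the 24 S-phase genes, while its mitotic mean of 4.96 log2 CPM was the second highest of the male vehicle libraries. At the other end, male replicate 4 at 9 weeks was the highest of its group for all 23 mitotic and 21 S-phase genes, and female replicate 3 at 15 weeks for all 23 mitotic and 20 S-phase genes.

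The 2 phases stood at different distances in different mice. The mitotic mean minus the S-phase mean was 0.11 on the log2 scale in female vehicle replicate 1 and 1.61 in male vehicle replicate 1, the ends of the range over the 30 libraries. In the treated libraries it ran from 0.57 to 1.21, at 0.98 ± 0.21 at 9 weeks and 0.92 ± 0.24 at 15 weeks (SD, n = 10), against 0.89 ± 0.47 in vehicle mice. The vehicle libraries spanned both ends, so no direction with treatment is read from it. The low S-phase value of male vehicle replicate 1 came with the high smooth muscle sum given above, and the part of the muscle RNA in it was not tested.

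**Figure D2:**
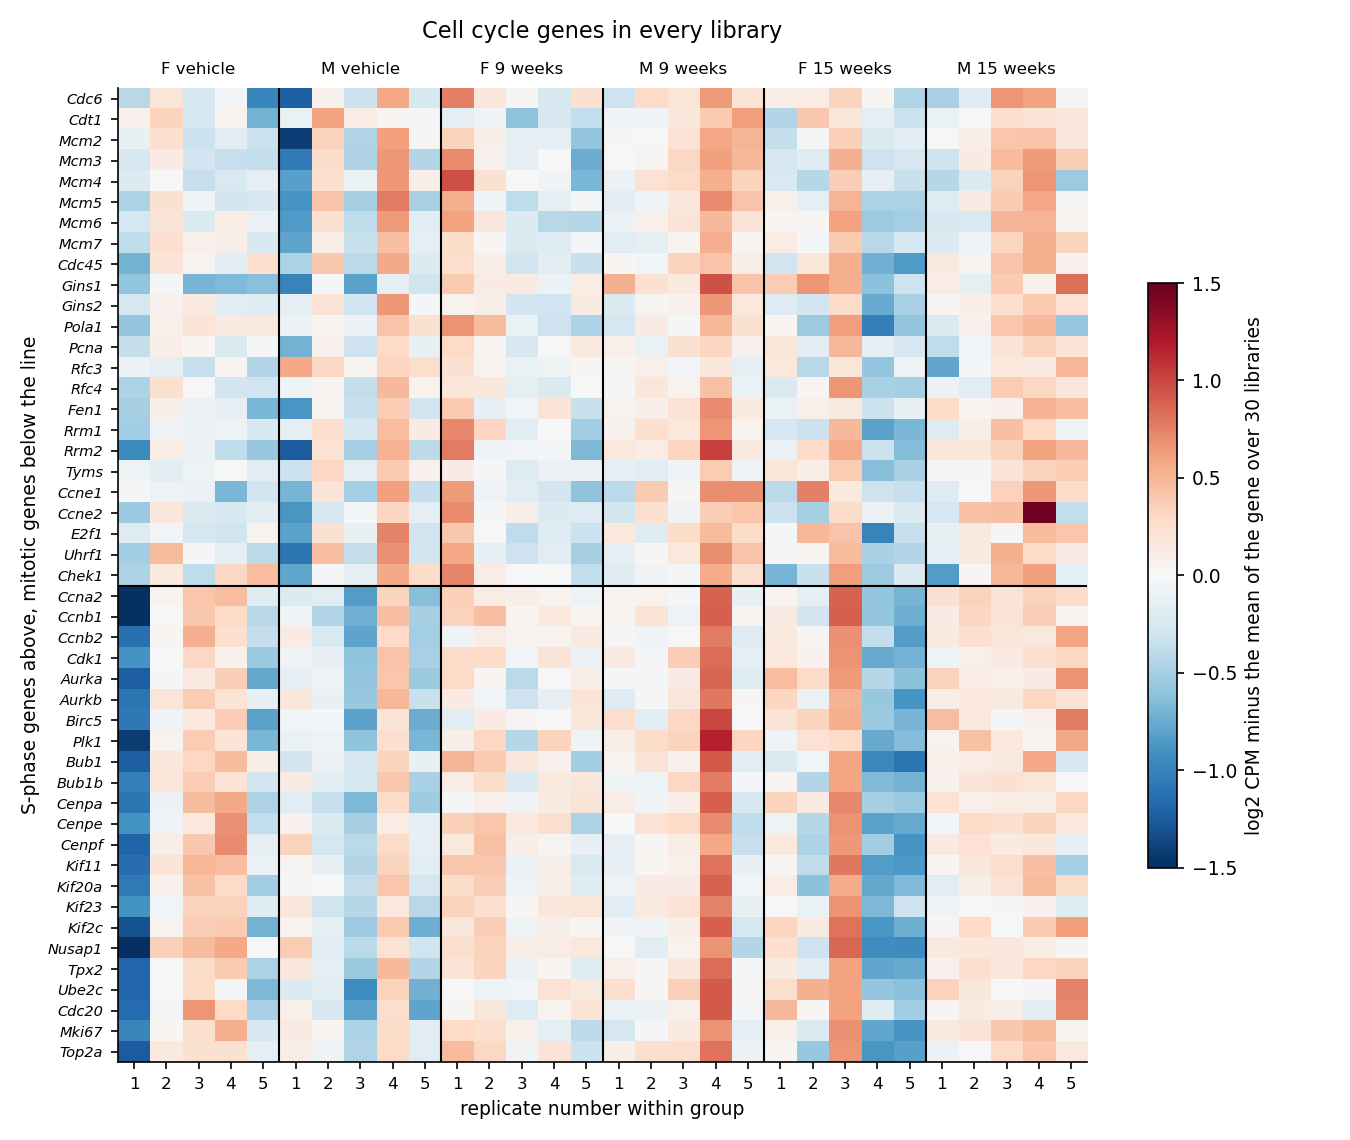
Log2 CPM of each of the 47 genes in each library minus the mean of that gene over the 30 libraries, with S-phase genes above the line, mitotic genes below it and the replicate numbers of each sex (F, M) and condition along the bottom. Female vehicle replicate 1 is low for the 23 mitotic genes, and male replicate 4 at 9 weeks and female replicate 3 at 15 weeks are high for nearly all genes.

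At 9 weeks of AOM/DSS, 1 of the 47 members changed against vehicle with both sexes in the comparison, which was Gins1, a subunit of the GINS complex that turns the loaded Mcm proteins into an active helicase. It was higher by 1.70-fold. A gene was called changed when edgeR's quasi-likelihood test gave a Benjamini-Hochberg adjusted p under 0.05 over all genes tested, with a log2 fold change beyond 0.4 in either direction and a mean of at least 1 FPKM in 1 compared group. The 1 called member is 2.13% of the 47, against 8.29% of all genes tested (1348 of 16261). At an unadjusted p under 0.05 there were 7 members, against 4720 of the 16261 genes tested. Of the 47 fold changes 44 were above 0, with a median log2 change of 0.22 against -0.02 over all genes tested, and they ran from -0.06 to 0.77. The genes share their libraries, so this count of signs is a description. The 8 epithelial markers lay at a like level, with 8 of 8 above 0, a median log2 change of 0.18 and 0 called (2 at an unadjusted p under 0.05), and the part of the epithelial share in the members' values was not tested.

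Gins1 was measured at 2.50, 3.69, 2.33, 2.39 and 2.45 CPM in the female vehicle libraries and at 1.89, 3.72, 2.17, 3.42 and 3.06 CPM in the male vehicle libraries, in replicate order. At 9 weeks it was at 4.95, 4.13, 4.11, 3.57 and 4.09 CPM in females and 5.49, 4.41, 4.17, 7.31 and 5.10 CPM in males. The males did not overlap with their vehicle group, and of the females 1 treated library, at 3.57 CPM, lay below the highest vehicle library. At 15 weeks Gins1 was at 4.94, 5.99, 5.50, 2.46 and 3.04 CPM in females and 4.09, 3.43, 4.95, 4 and 6.68 CPM in males, and both sexes overlapped with vehicle. Per transcript length its level was 1.77 ± 0.408 FPKM in vehicle mice, 3.18 ± 0.780 FPKM at 9 weeks and 2.62 ± 0.772 FPKM at 15 weeks (mean ± SD, n = 10).

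The log2 fold change of Gins1 was 0.77 ± 0.172 (SE) at 9 weeks, with a 95% interval of 1.33 to 2.17 for the fold and an adjusted p of 0.00258 by edgeR's quasi-likelihood test. At 15 weeks it was 0.70 ± 0.173, with an interval of 1.27 to 2.08 for the fold and an adjusted p of 0.00854. In all 29 alternatives, those without each compared library included, both changes kept their direction and their call, with log2 values from 0.69 to 0.84 at 9 weeks and from 0.63 to 0.78 at 15 weeks. Here and in the tallies of 29 below, the alternatives that only drop the fold or the FPKM minimum could not remove a call. Without both vehicle libraries numbered 1 they were 0.69 (adjusted p = 0.00834) and 0.63 (adjusted p = 0.0318) by the same test. With the mean level of the mesenchymal markers as a covariate they were 0.79 and 0.68. Gins1 (ENSMUSG00000027454) spans chr2:150905400-150931280 on the plus strand of GRCm38, and none of its exons overlaps an exon of another gene in the GENCODE annotation.

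**Figure D3:**
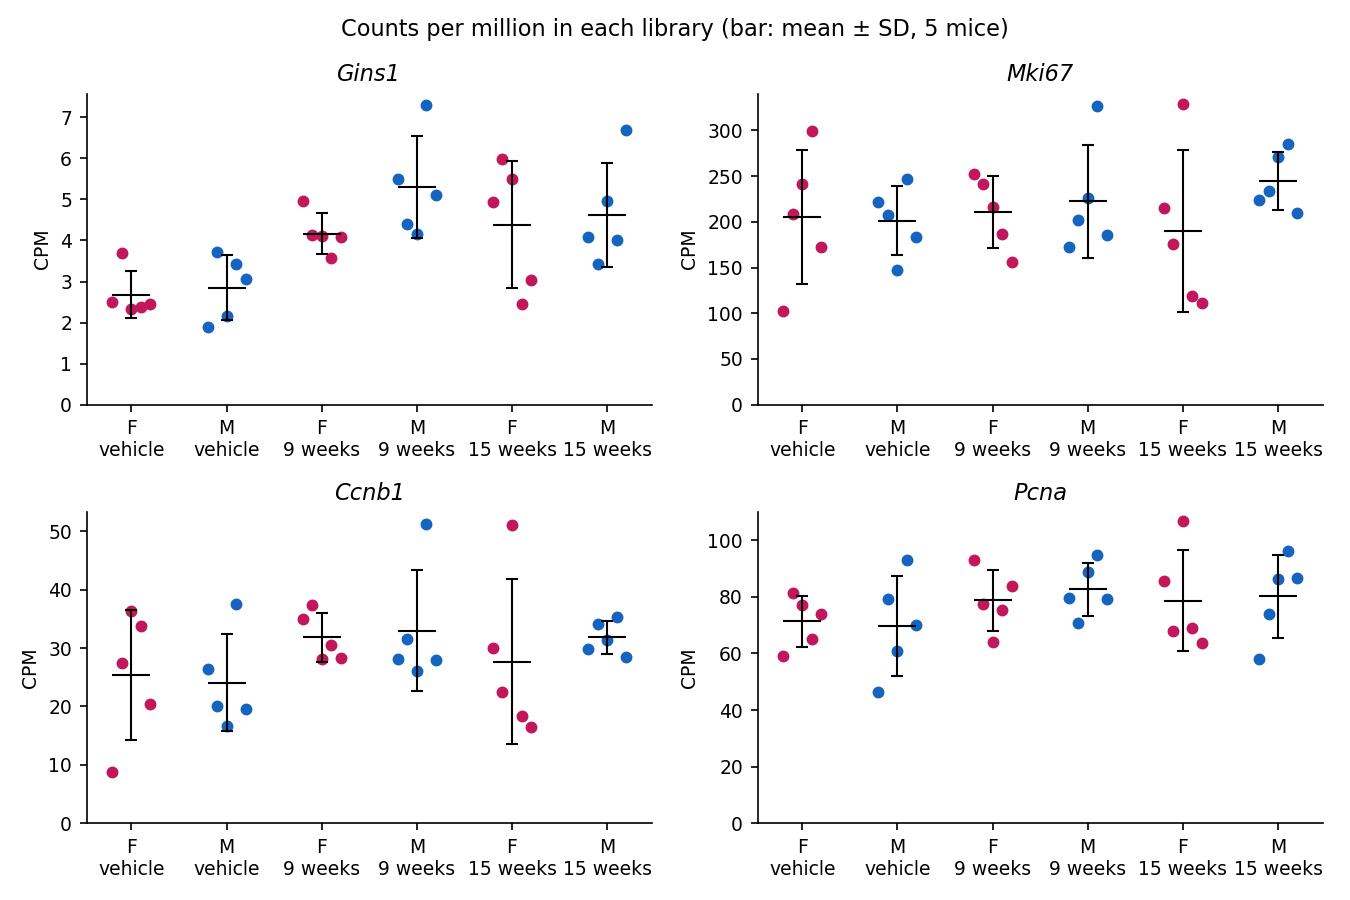
CPM of Gins1, Mki67, Ccnb1 and Pcna in each library, with the mean and SD of the 5 mice of each sex (F, M) and condition. For Gins1 the male 9-week libraries lie above all male vehicle libraries, and for the other genes the treated and vehicle libraries overlap in both sexes.

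Immune marker genes moved at the same time. At 9 weeks 4 of 8 macrophage markers (Cd68, Csf1r and others) were called higher, where 8.29% of all genes were called in either direction. Their summed level was 75.7 to 284 CPM against 31.5 to 183 CPM in vehicle mice. By sex their median log2 change was 1.88 in females, with 3 called, and 0.61 in males, with 1 called. Of 6 neutrophil markers 4 were called higher, with a median log2 change of 5.52, while their sums overlapped (10.8 to 206 CPM against 12.7 to 179 CPM). S100a8 and Cxcr2 were at 0 in the female vehicle libraries. Of 8 T cell markers 2 were called higher (12.5 to 31.3 CPM against 6.25 to 21.1 CPM). Of the 8 B cell markers 0 were called by edgeR's quasi-likelihood test, with 3 at an unadjusted p under 0.05, but all 8 lay above 0, with a median log2 change of 1.05 (0.99 to 1.34) and a median sum of 57.2 CPM against 27.2 CPM in vehicle mice. Of the 5 tested germinal centre B cell markers 0 were called, with 2 at an unadjusted p under 0.05 and a median log2 change of 0.31. The part of these cells in the change of Gins1 was not tested.

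The other members of the origin licensing and helicase group lay nearer to vehicle. Of these 11 genes 10 were above 0 at 9 weeks and 8 at 15 weeks, and their median log2 changes were 0.19 and 0.15. Cdc6 was at 0.41 at 9 weeks (adjusted p = 0.15 by edgeR's quasi-likelihood test) and at 0.29 at 15 weeks. Its partner Cdt1, which also loads the helicase, was at -0.06 at 9 weeks. Mcm2, Mcm3, Mcm4, Mcm5, Mcm6 and Mcm7, the 6 subunits of the helicase ring, lay between 0.09 (Mcm7) and 0.33 (Mcm3) at 9 weeks and between 0.00 (Mcm4) and 0.27 (Mcm3) at 15 weeks. Cdc45, which travels with the ring and the GINS complex, was at 0.06 at both times. Gins2, another subunit of the GINS complex, was at 0.03 at 9 weeks and -0.05 at 15 weeks. The remaining subunits, Gins3 and Gins4, which are not members and were looked up after the value of Gins1 was seen, were at -0.04 and -0.08 at 9 weeks and at 0.21 and 0.09 at 15 weeks. Of the 4 genes of this complex Gins1 was the 1 that was called, and the difference between it and the others was not tested.

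Mcm6 was the helicase gene set out in full. It was at 46.0, 62.8, 47.6, 59.4 and 51.4 CPM in female vehicle mice and at 30.7, 65.3, 42.5, 85.8 and 49.4 CPM in male vehicle mice. The 9-week libraries held 83.7, 62.0, 48.0, 41.4 and 40.9 CPM in females and 51.8, 58.0, 63.3, 77.4 and 63.0 CPM in males. All treated values lay within the range of the vehicle mice, which male vehicle replicates 1 and 4 set. At 15 weeks it was at 56.1, 56.1, 84.1, 37.7 and 38.6 CPM in females and 46.7, 47.1, 78.6, 78.4 and 56.8 CPM in males, again within that range. The fitted log2 change of Mcm6 was 0.12 ± 0.171 (SE) at 9 weeks (fold interval 0.853 to 1.39, adjusted p = 0.695) and 0.10 ± 0.171 at 15 weeks (0.841 to 1.37, adjusted p = 0.716) by edgeR's quasi-likelihood test.

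Among the 5 genes of DNA synthesis at the fork none was called, and Fen1, the flap nuclease that trims Okazaki fragments, had the largest values. Fen1 was at a log2 change of 0.35 at 9 weeks (adjusted p = 0.0709) and 0.31 at 15 weeks (adjusted p = 0.0997) by edgeR's quasi-likelihood test. Rfc3 and Rfc4, subunits of the loader that places the Pcna clamp, were at -0.04 and 0.10 at 9 weeks, and Pola1 at 0.06. Pcna was at 59.2, 81.3, 77.3, 65.0 and 74.0 CPM in female vehicle mice and at 46.3, 79.1, 61.0, 92.9 and 70.0 CPM in male vehicle mice. At 9 weeks it was at 93.2, 77.6, 63.9, 75.5 and 83.8 CPM in females and 79.6, 70.7, 88.8, 95 and 79.1 CPM in males. The 9-week mice lay in the upper part of the vehicle range and overlapped with it. At 15 weeks Pcna was at 85.8, 68.0, 107, 68.9 and 63.8 CPM in females and 58.0, 73.8, 86.4, 96.2 and 86.8 CPM in males. The log2 change of Pcna was 0.19 ± 0.114 (SE) at 9 weeks (fold interval 0.973 to 1.35, adjusted p = 0.272) and 0.17 ± 0.114 at 15 weeks (0.959 to 1.33, adjusted p = 0.294) by the same test.

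Of the 3 genes of nucleotide supply, Rrm2, the regulated subunit of ribonucleotide reductase, had the largest value. It was at 9.47, 19.8, 17.3, 14.1 and 12.4 CPM in female vehicle mice and at 7.74, 21.2, 13.0, 26.3 and 14.0 CPM in male vehicle mice. The levels at 9 weeks were 31.4, 17.7, 17.8, 17.9 and 11.5 CPM in females and 20.4, 19.8, 22.9, 37.3 and 20.1 CPM in males, and at 15 weeks at 17.3, 22.4, 27.0, 14.7 and 11.7 CPM in females and 20.7, 20.6, 23.1, 27.9 and 25.7 CPM in males. The 2 vehicle libraries numbered 1 were the lowest of all 30, and male vehicle replicate 4 overlapped with most treated libraries. The fitted log2 change of Rrm2 was 0.48 ± 0.199 (SE) at 9 weeks (fold interval 1.05 to 1.84, adjusted p = 0.105) and 0.43 ± 0.199 at 15 weeks (1.02 to 1.79, adjusted p = 0.123) by edgeR's quasi-likelihood test, so it was not called at either time. Rrm1, the large subunit of the same enzyme, was at 0.23 at 9 weeks and -0.01 at 15 weeks, and Tyms at -0.02 and 0.09.

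The 5 genes of S-phase entry and control were not called. At 9 weeks Ccne1 and Ccne2, the E-type cyclins that start S phase with Cdk2, were at log2 changes of 0.29 and 0.30. E2f1, a transcription factor for replication genes, was at 0.12, Uhrf1, which keeps DNA methylation on the newly made strand, at 0.14 and Chek1 at 0.09. At 15 weeks these 5 genes lay between -0.06 (Chek1) and 0.34 (Ccne2).

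Mki67, the gene of the Ki-67 protein, differed little between vehicle and treated mice. It was at 103, 209, 241, 299 and 173 CPM in female vehicle mice and at 222, 208, 147, 247 and 183 CPM in male vehicle mice. At 9 weeks it was at 252, 241, 216, 187 and 156 CPM in females and 172, 202, 226, 327 and 186 CPM in males, and at 15 weeks at 215, 176, 329, 119 and 111 CPM in females and 224, 234, 271, 285 and 210 CPM in males. The conditions overlapped in both sexes, and within each condition the highest library was at about the same level, 299, 327 and 329 CPM. The log2 change of Mki67 was 0.09 ± 0.179 (SE) at 9 weeks (fold interval 0.824 to 1.38, adjusted p = 0.788) and 0.08 ± 0.179 at 15 weeks (0.824 to 1.37, adjusted p = 0.769) by edgeR's quasi-likelihood test. The upper bound of these intervals is 1.38-fold over the 2 sexes together, and the sign at 15 weeks rested on female replicate 3, without which the log2 change was -0.06. Top2a, the other gene of chromosome structure, was at 0.27 at 9 weeks and 0.04 at 15 weeks.

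The mitotic cyclins and Cdk1 were not called. Ccnb1, the cyclin that drives entry into mitosis with Cdk1, was at 8.84, 27.5, 36.4, 33.8 and 20.5 CPM in female vehicle mice and at 26.5, 20.1, 16.7, 37.6 and 19.5 CPM in male vehicle mice. The 9-week libraries held 35.0, 37.4, 28.1, 30.5 and 28.3 CPM in females and 28.2, 31.5, 26.1, 51.2 and 27.9 CPM in males, and at 15 weeks at 30, 22.5, 51.1, 18.4 and 16.5 CPM in females and 29.8, 34.2, 31.3, 35.3 and 28.5 CPM in males. The vehicle mice spread from 8.84 to 37.6 CPM and the 9-week mice from 26.1 to 51.2 CPM, so the lower end of the vehicle range was empty at 9 weeks while the upper ends overlapped. The fitted log2 change of Ccnb1 was 0.39 ± 0.209 (SE) at 9 weeks (fold interval 0.973 to 1.77, adjusted p = 0.221) and 0.26 ± 0.209 at 15 weeks (0.889 to 1.61, adjusted p = 0.385) by edgeR's quasi-likelihood test. Ccna2, the cyclin of S phase and early mitosis, Ccnb2, a second B-type cyclin, and Cdk1 itself were at 0.29, 0.21 and 0.34 at 9 weeks and at 0.27, 0.24 and 0.20 at 15 weeks.

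Ube2c had the largest value of the mitotic genes at 15 weeks. It was at 12.8, 29.3, 35.5, 28.7 and 18.2 CPM in female vehicle mice and at 25.3, 25.9, 15.2, 37.1 and 17.6 CPM in male vehicle mice. The levels at 9 weeks were 29, 27.7, 28.2, 33.9 and 32.2 CPM in females and 34.6, 29.5, 37.2, 55.2 and 29.7 CPM in males, and at 15 weeks at 35.0, 42.1, 44.2, 19.5 and 18.9 CPM in females and 37.1, 32.8, 29.2, 28.4 and 48.8 CPM in males. The treated libraries overlapped with the upper vehicle libraries at both times. The log2 change of Ube2c was 0.45 ± 0.189 (SE) at both times (fold interval 1.04 to 1.79), with adjusted p of 0.109 at 9 weeks and 0.0953 at 15 weeks by edgeR's quasi-likelihood test. Its exons overlap those of Tnnc2 on the opposite strand, and 13 of the 47 members share exon positions with another gene on either strand. Top2a shares them with Gm23451 on the same strand, and Mcm7 with Mir25 and Mir93 on the same strand and with other genes on the opposite one. Cdc20, which activates the same anaphase-promoting complex, was at 0.26 and 0.29.

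The remaining mitotic genes held no call. Of the 6 mitotic kinases and checkpoint genes all were above 0 at 9 weeks and 5 at 15 weeks. Plk1, a kinase of mitotic entry and spindle assembly, was at 0.46 at 9 weeks (adjusted p = 0.107) and 0.25 at 15 weeks, and Birc5 at 0.39 at both times (adjusted p = 0.167 and 0.149) by edgeR's quasi-likelihood test. Aurka, the kinase of the spindle poles, was at 0.27 and 0.38, Aurkb, the kinase of the passenger complex, at 0.10 and 0.08, and Bub1 and Bub1b, of the spindle checkpoint, at 0.21 and 0.20 at 9 weeks. At the centromere, Cenpa, the histone that marks it, was at 0.26 at both times, and Cenpe and Cenpf, which link it to microtubules, were at 0.25 and 0.06 at 9 weeks and 0.07 and -0.05 at 15 weeks. The 6 spindle genes, the motors Kif11, Kif20a, Kif23 and Kif2c and the microtubule proteins Nusap1 and Tpx2, lay between 0.09 and 0.28 at 9 weeks and between -0.02 and 0.30 at 15 weeks.

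**Figure D4:**
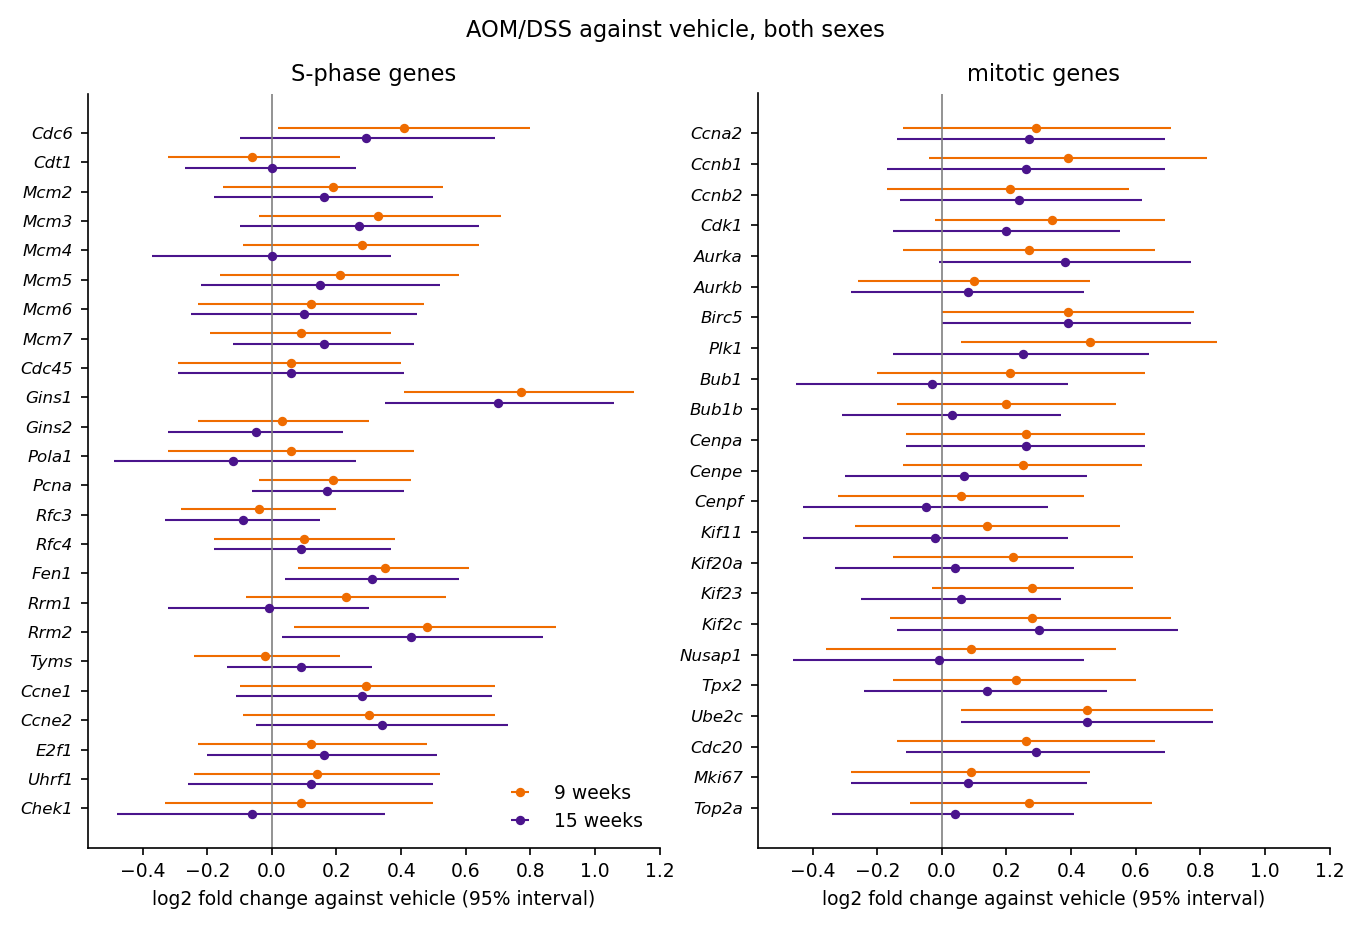
Log2 fold change of each member against vehicle, both sexes together, at 9 weeks (orange) and 15 weeks (purple), with 95% intervals, for S-phase genes (left) and mitotic genes (right). Gins1 is the member that was called, at 0.77 and 0.70, and most other points lie to the right of 0 with intervals that include it.

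At 15 weeks the count was the same, with 1 called member (Gins1), which is 2.13% of the 47 against 7.35% of all genes tested. An unadjusted p under 0.05 was reached by 4 members, against 5559 of the 16261 genes. Of the 47 log2 changes 37 were above 0, with a median of 0.14 against -0.03 over all genes. Against 9 weeks, 0 of the 47 members were called at 15 weeks by edgeR's quasi-likelihood test, against 2.32% of all genes, and 0 by DESeq2. An unadjusted p under 0.05 was reached by 0 members, against 3846 of the 16261 genes. The median log2 change from 9 to 15 weeks was -0.04 over the members and -0.02 over all genes.

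The largest changes between the times were in Mcm4 and Rrm1. Mcm4 was at 46.4, 28.0, 24, 22.9 and 14.8 CPM in females and 22.4, 27.7, 29, 34.8 and 30 CPM in males at 9 weeks. At 15 weeks it was at 20.4, 17.7, 30.7, 21.8 and 18.9 CPM in females and 17.7, 20.6, 30.2, 37.8 and 16.4 CPM in males, so the times overlapped in both sexes. Its log2 change from 9 to 15 weeks was -0.27 ± 0.18 (SE), with a fold interval of 0.642 to 1.06 and an adjusted p of 0.353 by edgeR's quasi-likelihood test. It was -0.14 without female 9-week replicate 1 and ran to -0.36 with other libraries left out, and it was -0.52 with the mesenchymal level as a covariate. Rrm1 was at 76.6, 58.5, 41.8, 46.4 and 32.6 CPM in females and 48.8, 55.3, 51.9, 74.0 and 48.2 CPM in males at 9 weeks, and at 39.0, 37.4, 65.3, 26.7 and 29.1 CPM and 40.8, 49.7, 63.7, 57.4 and 44.3 CPM at 15 weeks. Its log2 change was -0.25 ± 0.151, with a fold interval of 0.678 to 1.04 and an adjusted p of 0.317 by the same test. Leaving out female 9-week replicate 1 gave -0.15, and leaving out replicate 3 of the 15-week females gave -0.38.

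The counts were sensitive to male vehicle replicate 4, which had the highest CPM of its group for 21 S-phase and 20 mitotic genes. Without it 5 members were called at 9 weeks, Cdc6, Fen1, Gins1, Rrm2 and Ube2c, and 3 at 15 weeks, Gins1, Rrm2 and Ube2c. With the mesenchymal level as a covariate 4 were called at 9 weeks, Cdc6, Fen1, Gins1 and Rrm2. The shares of all genes called in these fits were not set beside the counts, so no surplus of members is read from them.

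Taken by sex, 1 of 47 members was called in males at 9 weeks (2.13%, against 7.31% of all genes) and 0 of 47 in females (against 2.9% of all genes) by edgeR's quasi-likelihood test. In males Gins1 was higher by 1.86-fold, at a log2 change of 0.89 ± 0.243 (SE, fold interval 1.32 to 2.62, adjusted p = 0.0191). This male call was lost without male vehicle replicate 1 (0.78, adjusted p = 0.0616), male vehicle replicate 3 (0.81, adjusted p = 0.0533) or male 9-week replicate 4 (0.75, adjusted p = 0.0695), and 3 members were called without male vehicle replicate 4, which were Fen1, Gins1 and Ube2c. In females Gins1 was at 0.64 (adjusted p = 0.154), the 1 member with an unadjusted p under 0.05, against 5 such members in males. Over all 16261 genes 2796 had such a p in females and 4127 in males. DESeq2 called 0 members in females. The shares of all genes called without male vehicle replicate 4 and by DESeq2 were not set beside these counts, so no surplus is read. The median log2 change over the members was 0.30 in males and 0.14 in females, and 45 and 44 of the 47 were above 0. In males all 6 smooth muscle markers were called lower at 9 weeks, with sums of 14.5 to 73.8 CPM against 33.2 to 5290 CPM in vehicle mice. The 5290 CPM belonged to male vehicle replicate 1, whose part in these marker calls was not tested. The male median sums were 39.9 CPM at 9 weeks and 76.6 CPM in vehicle mice. In females the same 6 markers all lay above 0, with a median log2 change of 2.58, 0 called and 5 at an unadjusted p under 0.05 by edgeR's quasi-likelihood test. The 12 mesenchymal markers all lay above 0 in females as well, with a median of 1.54, and 11 of 12 lay below 0 in males, with a median of -0.65. The male median sum of this list was nevertheless higher at 9 weeks, at 297 CPM against 237 CPM in vehicle mice. Male vehicle replicate 1 had 1630 CPM. The epithelial markers had a median log2 change of 0.26 in males and 0.08 in females. The part of these cells in the values of either sex was not tested.

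At 15 weeks 0 of 47 members were called in females (against 0.0984% of all genes) and 0 in males (against 8.92% of all genes) by edgeR's quasi-likelihood test. Members with an unadjusted p under 0.05 numbered 1 in females (Gins1) and 3 in males (Gins1, Fen1 and Ccne2), and DESeq2 called 0 in females and 1, Gins1, in males. Over all 16261 genes 1776 had such a p in females and 5114 in males. Gins1 was at a log2 change of 0.71 in females (adjusted p = 0.307) and 0.70 in males (adjusted p = 0.0512) by edgeR's quasi-likelihood test. In males it was the 1 called member without male vehicle replicate 2, without male 15-week replicate 2 and without male 15-week replicate 4. Without male vehicle replicate 4 it was called together with Fen1. The shares of all genes called in these fits and by DESeq2 were not set beside these counts. Mki67 was at -0.11 in females and 0.28 in males, with fold intervals of 0.646 to 1.33 and 0.847 to 1.74. All 23 mitotic members were above 0 in males, with a median log2 change of 0.28, and 12 of 23 in females, with a median of 0.01. Of the 24 S-phase members 20 were above 0 in males, with a median of 0.20, and 19 in females, with a median of 0.06. In the same comparison all 6 smooth muscle markers and 6 of 12 mesenchymal markers were called lower in males and none of either list in females. The 8 epithelial markers were all above 0 in males, with a median log2 change of 0.36 and 2 called higher, and in females their median was 0.16 with 0 called. The part of these cells in the sign of the mitotic genes was not tested. The male 15-week libraries were also the least spread in the mitotic mean, from 5.03 to 5.18 log2 CPM, while the females ran from 4.19 to 5.59. In the S-phase mean they were not, with an SD of 0.26 against 0.18 in female vehicle mice.

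No member was called for a difference between the sexes in its change with treatment. At 9 and at 15 weeks 0 of 47 members were called in the test of the male minus the female change (edgeR's quasi-likelihood test, 0.0% of all genes), with 1 and 0 at an unadjusted p under 0.05 and 0 by DESeq2. Such a p was reached by 1205 of the 16261 genes at 9 weeks and by 1245 at 15 weeks. The median male minus female change was 0.14 at 9 weeks and 0.26 at 15 weeks on the log2 scale. Gins1 was at 0.26 ± 0.344 (SE) at 9 weeks and -0.01 ± 0.341 at 15 weeks, so a difference between the sexes of up to 1.95-fold at 9 weeks lies within its interval.

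The genes with the largest differences between the sexes were Rfc3 and Plk1 at 9 weeks. Rfc3 was at 13.1, 12.6, 11.0, 14.4 and 10.3 CPM in female vehicle mice and 16.4, 14.5, 13.0, 13.3 and 14.2 CPM in females at 9 weeks. The male libraries held 20.7, 17.3, 14.2, 17.4 and 16.8 CPM in vehicle mice and 14.1, 14.7, 13.6, 15.7 and 12.7 CPM at 9 weeks. Females were thus on average higher and males lower at 9 weeks than their own vehicle group, with overlap in both sexes, and the difference of the log2 changes was -0.50 ± 0.236 (SE, adjusted p = 0.66 by edgeR's quasi-likelihood test). Plk1 was at 6.59, 18.4, 23.2, 20.4 and 11.0 CPM in female vehicle mice and 18.8, 22, 13.2, 22.3 and 17.0 CPM in females at 9 weeks. In males it was at 16.5, 16.8, 11.7, 21.1 and 11.0 CPM in vehicle mice and 18.8, 21.4, 22.4, 39.7 and 22.1 CPM at 9 weeks. The male groups overlapped through male vehicle replicate 4, and the difference of the log2 changes was 0.47 ± 0.384 (adjusted p = 0.806 by edgeR's quasi-likelihood test). It was 0.23 without male 9-week replicate 4, at 39.7 CPM the highest library, and 0.67 without female vehicle replicate 1.

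At 15 weeks they were Ccne2 and Ccna2. Ccne2 was at 4.61, 7.66, 5.85, 5.74 and 6.08 CPM in female vehicle mice and 5.46, 4.83, 8.23, 6.38 and 5.84 CPM in females at 15 weeks. The male libraries held 3.71, 5.74, 6.74, 8.53 and 6.16 CPM in vehicle mice and 5.70, 9.22, 9.30, 18.7 and 5.27 CPM at 15 weeks, where replicate 4 lay far above the others. The difference of the log2 changes was 0.60 ± 0.381 (SE, adjusted p = 0.767 by edgeR's quasi-likelihood test). Leaving out single libraries it ranged from 0.22, without that male replicate 4, to 0.76, and with the mesenchymal level as a covariate it was 0.05. Ccna2 was at 22, 65.3, 84.5, 87.2 and 55.9 CPM in female vehicle mice and 65.1, 57.1, 117, 42.2 and 39.1 CPM in females at 15 weeks. In males it was at 55.0, 56.1, 35.3, 79.8 and 40.7 CPM in vehicle mice and 73.9, 80.6, 72.3, 80.3 and 76.3 CPM at 15 weeks. The females overlapped, the male 15-week libraries lay near the top of the male vehicle range, and the difference of the log2 changes was 0.50 ± 0.406 (adjusted p = 0.845 by edgeR's quasi-likelihood test). Leaving out single libraries it ranged from 0.35 to 0.83, the latter without female 15-week replicate 3.

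Between males and females of the same condition 0 of 47 members were called in vehicle mice (against 0.178% of all genes), at 9 weeks (0.0492%) and at 15 weeks (0.184%) by edgeR's quasi-likelihood test, and 0 by DESeq2. Members with an unadjusted p under 0.05 were Rfc3 in vehicle mice (log2 0.49 higher in males, adjusted p = 0.112), Cdt1 at 9 weeks (0.51, adjusted p = 0.999), and Gins2 (0.45, adjusted p = 0.311) and Ccne2 (0.64, adjusted p = 0.314) at 15 weeks. Over all 16261 genes 3035 had such a p in vehicle mice, 630 at 9 weeks and 2009 at 15 weeks.

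Further genes of the same pathways held no call. Of 24 other S-phase genes (Mcm10, Orc1, Tk1 and others) and 28 other mitotic genes (Foxm1, Ttk, Espl1 and others), 0 were called at 9 weeks, at 15 weeks or between the times by edgeR's quasi-likelihood test, with at most 2 of either list at an unadjusted p under 0.05 in each comparison. Over all 16261 genes 4720 had such a p at 9 weeks, 5559 at 15 weeks and 3846 between the times. The shares of all genes called in these comparisons were 8.29%, 7.35% and 2.32%. The median log2 changes of the other S-phase and other mitotic genes were 0.04 and 0.19 at 9 weeks and 0.06 and 0.14 at 15 weeks.

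Some regulators of the step before S phase were called. Of 9 G1 cyclins, kinases and factors, 2 were higher and 1 lower at 9 weeks, where 8.29% of all genes were called. At 15 weeks 0 were called over both sexes by edgeR's quasi-likelihood test, against 7.35% of all genes. Of the 9, 3 had an unadjusted p under 0.05, as had 5559 of all 16261 genes. In males at 15 weeks 1 was called, E2f2, at a log2 change of 1.05 (adjusted p = 0.0263 by the same test). E2f2, a transcription factor for replication genes, was at 26.9, 29.6, 36.1, 31.3 and 19.9 CPM in female vehicle mice and 37.9, 28.4, 36.6, 46.1 and 21.6 CPM in females at 9 weeks. The male libraries held 4.49, 29.4, 10.8, 31.4 and 15.8 CPM in vehicle mice and 38.2, 40.9, 54.5, 55.6 and 35.5 CPM at 9 weeks. The females overlapped and the males did not, and E2f2 rose 1.70-fold over both sexes (fold interval 1.25 to 2.33, adjusted p = 0.0159 by edgeR's quasi-likelihood test). The log2 change was 1.29 in males (adjusted p = 0.00933) and 0.24 in females (adjusted p = 0.766), but 0 of the 9 genes were called by the same test for the difference between the sexes. Of the 9, 2 had an unadjusted p under 0.05 for it, against 1205 of all 16261 genes. Without male vehicle replicate 1, which was the lowest library, the change of E2f2 over both sexes was 0.64 (adjusted p = 0.011 by the same test).

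Cdk6, a kinase that works with cyclin D, fell in both sexes. It was at 44.2, 85.1, 68.3, 82.7 and 85.0 CPM in female vehicle mice and 41.8, 39.2, 42.1, 29.3 and 52.2 CPM in females at 9 weeks, with overlap through 1 vehicle library. In males it was at 37.7, 45.3, 62.3, 55.7 and 45.1 CPM in vehicle mice and 27.6, 33.3, 28.8, 32.5 and 32.4 CPM at 9 weeks, with no overlap. The fold over both sexes was 0.593 (interval 0.5 to 0.707, adjusted p = 7.61e-05 by edgeR's quasi-likelihood test), and the call held in all 29 alternatives. At 15 weeks Cdk6 was higher than at 9 weeks by a log2 change of 0.42 (adjusted p = 0.0424), a call kept in 12 of 29 alternatives. Ccnd1, cyclin D1, was higher at 9 weeks over both sexes by 1.43-fold (interval 1.14 to 1.80, adjusted p = 0.027 by edgeR's quasi-likelihood test). Female libraries held 71.8 to 94.0 CPM in vehicle mice and 47.8 to 120 CPM at 9 weeks, with overlap. Male libraries held 33.6 (replicate 1) to 95.9 CPM in vehicle mice and 96.4 to 136 CPM at 9 weeks. In females at 9 weeks 0 of the 9 G1 genes were called higher, and the largest log2 change among them was 0.29. The call of Ccnd1 held in 24 of 29 alternatives. It was lost without male vehicle replicate 3, female 9-week replicate 1 or female 9-week replicate 4, with adjusted p of 0.0501, 0.0563 and 0.0574 by edgeR's quasi-likelihood test, with the mesenchymal covariate (0.0518) and without both vehicle libraries numbered 1 (0.0602).

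Among 11 tested brakes of the cycle, 1 was called at 9 weeks and at 15 weeks, a count near the background of 8.29% and 7.35% of all genes, so it is given as a value of 1 gene and not of the list, whose median log2 changes were -0.05 and -0.07. In females alone 0 were called at either time by edgeR's quasi-likelihood test, with 2 at an unadjusted p under 0.05 each time. Over all 16261 genes 2796 had such a p in females at 9 weeks and 1776 at 15 weeks. Cdkn1c, the Cdk inhibitor p57, was at 4.33, 7.75, 6.92, 8.22 and 9.06 CPM in female vehicle mice and at 1.72, 5.01, 7.11, 4.01 and 4.07 CPM in male vehicle mice. At 9 weeks it was at 7.40, 12.1, 11.1, 14.5 and 10.4 CPM in females and 12.1, 7.82, 13.3, 9.73 and 7.15 CPM in males, and the males did not overlap with their vehicle group. At 15 weeks it was at 8.77, 18, 7.70, 9.88 and 10.6 CPM in females and 9.49, 8, 9.06, 6.27 and 12.7 CPM in males. It rose 1.88-fold at 9 weeks (interval 1.40 to 2.50, adjusted p = 0.00233) and 1.78-fold at 15 weeks (1.34 to 2.38, adjusted p = 0.00808) by edgeR's quasi-likelihood test, and both calls held in all 29 alternatives. Cdkn2a was at 0 in all vehicle libraries and was not tested. The exons of Ccnd1, Cdk6 and Cdkn1c overlap those of a gene on the opposite strand.

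**Figure D5:**
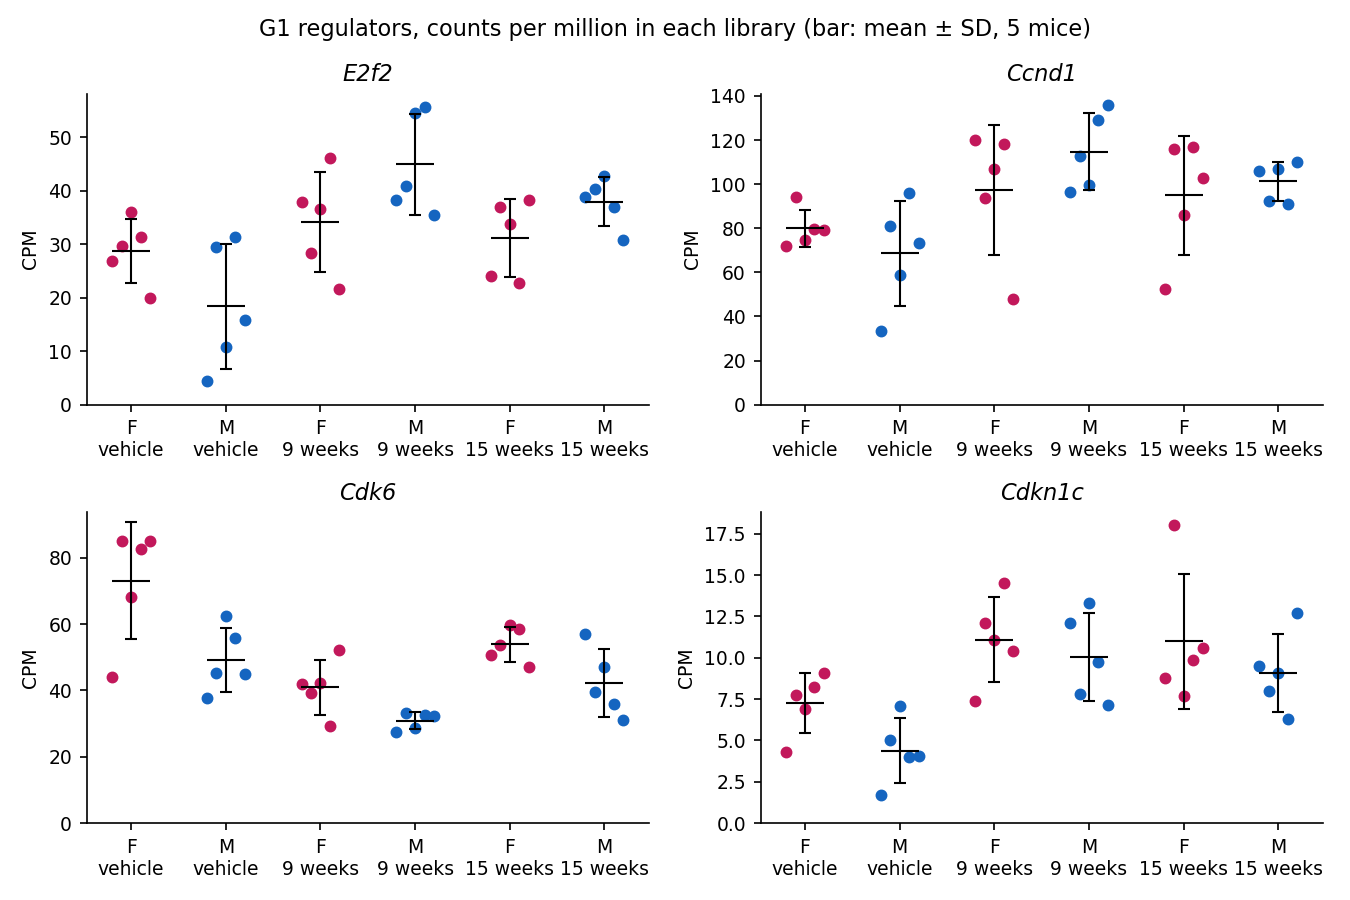
CPM of E2f2, Ccnd1, Cdk6 and Cdkn1c in each library, with the mean and SD of the 5 mice of each sex (F, M) and condition. At 9 weeks the male libraries lie above their vehicle group for E2f2 and Cdkn1c and below it for Cdk6, with fold changes over both sexes of 1.70, 1.88 and 0.593.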

How the data were processed

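The epithelial layer of the colon was profiled by stranded poly-A RNA sequencing in 30 mice, 1 library each. The authors trimmed and aligned the reads with STAR to mouse GRCm38 and made raw counts per gene with featureCounts, and these counts were deposited in 1 table. Whether the counting used strand is not given in the sources used here. The deposited FPKM, TPM and coverage values per gene were made by the authors with StringTie, from the same alignments, and of these only FPKM was used here, for levels and for a minimum of 1. The authors' TPM and coverage (signal) columns were not used.

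Counts were tested with edgeR 4.0.16 (R 4.3.3) by its quasi-likelihood test on all 30 libraries, with TMM scaling (factors 0.832 to 1.10), 1 mean per group and contrasts over the 12 comparisons. The low-count filter left 16261 of 46078 genes, and p-values were adjusted over all of them by Benjamini-Hochberg. CPM were taken on the library totals of the filtered genes multiplied by the TMM factors. Log2 CPM used a prior count of 2. The SE of a log2 change was its absolute value divided by the square root of the test's F statistic. The 95% intervals were computed from this SE. The steps were tested on simulated data. Total counts were 9265804 to 30806392 per library, and no pair of the 60 within groups agreed within sampling noise. Many reads were duplicates, per the study's methods, so counts are not independent molecules. Each library is 1 mouse. The members and lists were chosen with earlier results of these data known. Genes named with full values are Mki67, Pcna, Ccnb1 and Mcm6, called members and the 2 members with the largest change in each comparison of both sexes and in each test of a difference between the sexes. Of the G1 genes and brakes, called genes are named, at most 4 per list. Alternatives were RLE size factors, DESeq2 1.42.0, no low-count filter, no fold or FPKM minimum, the compared libraries only, a replicate block, a mesenchymal covariate and each library left out. Dropping the fold or the FPKM minimum kept the same fit and could add a call but not remove one. Leaving out both vehicle libraries numbered 1 was chosen after seeing the data.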

Additional observations from a re-analysis of the deposited data

Results flagged for a closer look

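In 294 sets of 5 libraries, 1 for each member or mean and each group, the highest or the lowest library was set against the others by Dixon's ratio, which chance passes in about 1 of 20 sets, and 23 passed. They concern 20 members, and the values of 1 library are not independent of each other. Male replicate 4 at 9 weeks held 14 of the 23. Its mean over the mitotic genes was 5.76 log2 CPM against a group median of 4.96. Among the S-phase genes it was high for Mcm7 (6.11 log2 CPM), Fen1 (4.92), Rrm2 (5.23) and Tyms (5.15). Among the mitotic genes it was high for Ccna2 (6.88 log2 CPM), Ccnb1 (5.68), Ccnb2 (5.71), Aurka (4.91), Plk1 (5.32), Kif11 (5.94), Kif20a (5.46), Tpx2 (5.82) and Cdc20 (5.71).

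Female vehicle replicate 1 was low for Pola1, at 2.82 log2 CPM against a group median of 3.54, for Bub1 at 2.30 against 3.70, for Nusap1 at 2.85 against 4.92 and for Top2a at 5.57 against 6.96. Female vehicle replicate 2 was high for Mcm3, at 4.89 log2 CPM against 4.48, and for Gins1, at 1.92 against 1.34. Female replicate 3 at 15 weeks was high for Mcm3, at 5.30 log2 CPM against 4.52. Male replicate 5 at 15 weeks was high for Ccnb2, at 5.51 log2 CPM against 5.11, and low for Cenpf, at 4.85 against 5.10.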

How the results depend on the processing

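Of the counts of called members, 264 stayed within 1.5 times the reported count and 14 did not, and of the values of single genes 819 kept direction and side of the threshold, 59 lost a call, 3 gained one and 10 turned direction. At 9 weeks in both sexes 4 members were called with the mesenchymal covariate, and 1 to 5 with single libraries left out. At 15 weeks the range over left-out libraries was 1 to 3. In males at 9 weeks it was 0 to 3, and 0 members were called without both vehicle libraries numbered 1. In males at 15 weeks 1 member was called with RLE size factors and with DESeq2, and 0 to 2 with single libraries left out. The shares of all genes called in these settings are not given beside these counts. Over the left-out libraries the log2 change of Mki67 ranged from -0.06 (without female 15-week replicate 3) to 0.19 at 15 weeks, from -0.03 (without male 9-week replicate 4) to 0.23 in males at 9 weeks, and from -0.13 to 0.21 in females at 9 weeks, where it was below 0 without female vehicle replicate 1 (-0.13) or 5 (-0.02) and without female 9-week replicate 1 (-0.04) or 2 (-0.02). Without both vehicle libraries numbered 1 the female value was -0.13. Mcm6 at 15 weeks ranged from -0.01 (without female 15-week replicate 3) to 0.21, and was -0.01 with the mesenchymal covariate and -0.0018 without both vehicle libraries numbered 1. The cause was not tested. Among the genes followed one by one, the calls gained were Rrm2 at 9 weeks, with the mesenchymal covariate and without male vehicle replicate 4, and Ube2c at 15 weeks without male vehicle replicate 4. The other members gained are in the counts above. Replicate numbers did not pair the mice, since deviations of same-numbered libraries correlated from -0.581 to 0.467 (median -0.0262, 75 pairs) and 4 of 30 libraries correlated best with their own number. With the replicate block no member call changed, with Gins1 at 0.78 (edgeR adjusted p = 0.00511) at 9 weeks and 0.71 (adjusted p = 0.0166) at 15 weeks. Depth limits Gins1 most, with 23 counts in its lowest library.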

Other observations

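Markers of crypt stem cells, which are not members of the list and were chosen for naming after their values were seen, lay on both sides of 0. Of 7 tested, 3 were called lower at 9 weeks and 2 at 15 weeks by edgeR's quasi-likelihood test, against 8.29% and 7.35% of all genes called in either direction. At each time 2 of the 7 lay above 0 and were not called, Cd44 at a log2 change of 0.25 and 0.44 and Sox9 at 0.04 and 0.26. Axin2 was at -0.26 and -0.13 and Rnf43 at -0.18 and -0.28, also not called over both sexes, while Axin2 was called lower in females at 9 weeks (-0.65, adjusted p = 0.0448 by edgeR). The summed level of the list had a median of 230.0 CPM in vehicle mice, 220.0 CPM at 9 weeks and 231 CPM at 15 weeks. Lgr5, a receptor that marks these cells, fell by 1.21 at 9 weeks and by 1.52 at 15 weeks on the log2 scale (adjusted p = 0.0176 and 0.0067 by edgeR). Ascl2, a transcription factor of stem cells, fell by 0.85 at 9 weeks (adjusted p = 0.00241 by edgeR) and was not called against vehicle at 15 weeks. It was called higher at 15 than at 9 weeks, by 0.57 to 0.74 over left-out libraries, a call kept in 10 of 29 alternatives. Smoc2, a secreted matrix protein, fell by 0.54 at 9 weeks (adjusted p = 0.0418 by edgeR) and by 0.75 at 15 weeks (adjusted p = 0.00825). The call of Smoc2 at 9 weeks held in 15 of 29 alternatives.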
